A study of Mus musculus with 44 samples.

Results

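The contrast described here is that of ZT9 against ZT21 in mice that received PBS without tumour cells. Its members are 6 of the 44 libraries of the series, 3 collected at each timepoint, and were taken from the sample labels. Zeitgeber time (ZT) counts the hours after light onset, so ZT9 falls in the afternoon and ZT21 late in the night. All 6 mice carried the genotype label WT and the treatment label PBS. Per the methods they were adult females housed in a light-dark cycle. PBS was injected subcutaneously into the flank, and the draining inguinal lymph node was taken 1 day later, at the same ZT as the injection. Cells labelled CD11C+ MHCII high, the gate by which the study obtained its dendritic cells (DCs), were sorted from the digested node. Each library is from 1 mouse, so the spread given below is that between mice. A sham node holds no tumour antigen, and what the contrast addresses is how the DCs of an unchallenged mouse differ between the afternoon and the end of the night. The sham mice of ZT3 and ZT15 (3 each) entered the fit to share the estimate of the spread, and the control mice with tumour cells (5 per timepoint) were used where stated.

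DCs take up antigen in the skin, move through lymphatic vessels to the draining node and present the antigen to T cells there, with the help of co-stimulatory ligands such as CD80. In nearly every cell of the body a clock of transcription factors runs, in which BMAL1 and CLOCK drive the genes of their own repressors, the PER and CRY proteins, and of the nuclear receptor REV-ERB alpha (*Nr1d1*). Immediate early genes, in contrast, are transcribed within minutes of a stimulus and need no new protein for it.

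Sequencing depth overlapped between the timepoints. The 3 ZT9 libraries held 28003328, 33884250 and 40149035 reads on genes, and the 3 ZT21 libraries 37010357, 41999385 and 30611830 (difference of means, exact two-sided permutation test, p = 0.7, where 0.1 is the smallest value that 3 against 3 can give). Across genes, libraries of different timepoints correlated as closely as those of the same timepoint, with Pearson coefficients of 0.960 to 0.968 between ZT9 and ZT21, 0.962 to 0.967 within ZT9 and 0.962 to 0.968 within ZT21. Of the markers of the sorted cells, *H2-Aa*, which encodes a chain of MHC class II, lay at 2435 to 2969 CPM (reads of a gene per 1000000 reads on genes) at ZT9 and 2332 to 2961 CPM at ZT21. *Ccr7*, the receptor that guides DCs to the node, was at 5637 to 6201 CPM and 4655 to 5826 CPM. *Flt3* and *Zbtb46*, which mark conventional DCs, were present in each library (579 to 688 and 119 to 168 CPM over the 6 libraries).

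No gene passed an adjusted p of 0.05 in the sham contrast (limma, 0 of 11963 genes tested, 0% called, smallest adjusted p = 0.197). In 11 other ways of fitting the contrast and in 12 fits that each left out 1 sham library, a single gene passed in a single fit: with an intensity trend in limma, *Jun* reached an adjusted p of 0.0410, at a log2 difference of 0.90. At an unadjusted p under 0.05, 637 genes differed, or 5.32% of those tested, where this threshold gives 5% if no gene differs. These genes were not split evenly. 432 (3.61% of all genes tested) were higher at ZT9 and 205 (1.71%) were lower, and among the 9184 genes with a mean of at least 5 CPM the split was 301 against 87. The median difference over all genes was 0.03 on the log2 scale. All 3 ZT9 libraries lay above all 3 ZT21 libraries in 795 genes (6.65%) and below them in 448 (3.74%). The median standard error of a log2 difference was 0.25. The values below describe genes by rank and by list, and none of them passed the adjusted test in the fit reported. "Higher" and "lower" in the counts of a list mean an unadjusted p under 0.05. Differences and standard errors are on the scale of log2(CPM + 0.5), and unadjusted p-values come from the same limma fit.

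**Figure D1:**
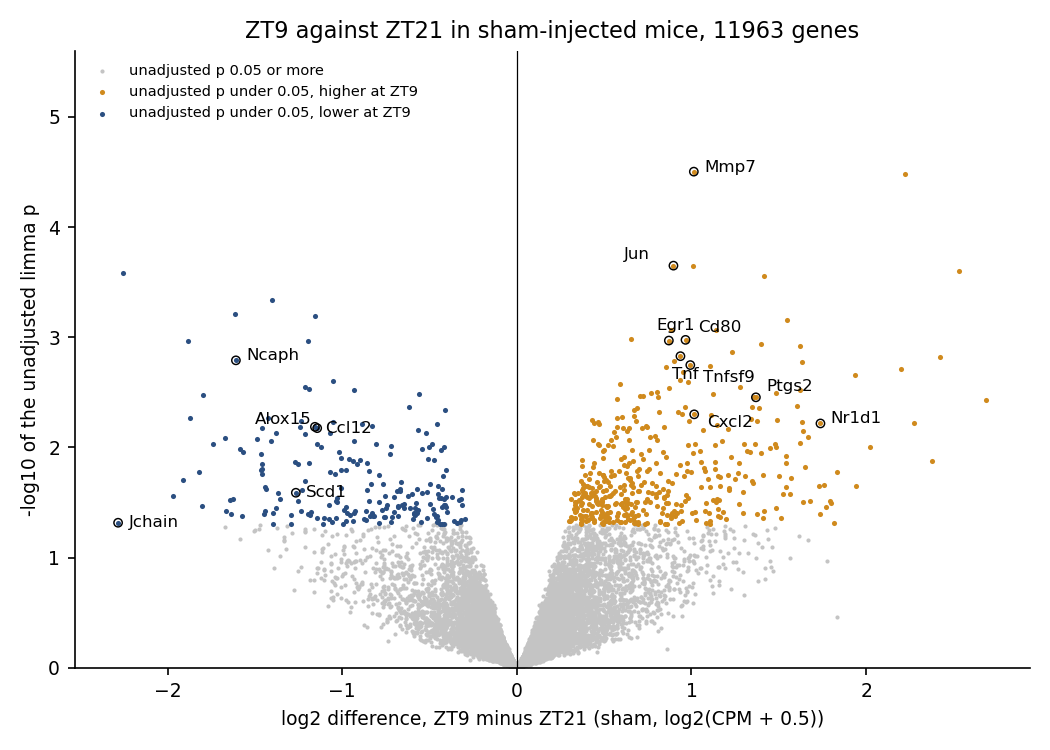
Each point is 1 of 11963 genes, placed by its log2 difference (ZT9 minus ZT21, sham mice, x axis) and by the negative log10 of its unadjusted limma p (y axis); orange and blue points have an unadjusted p under 0.05 and are higher or lower at ZT9. The orange points number 432 and the blue points 205, and circled points are genes named in the text.

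*Jun* encodes a subunit of the transcription factor AP-1 and lies at chr4:95049036-95052222 (GRCm38.p6, minus strand). Its promoter is shown because the gene had the smallest unadjusted p of its list and because the c-Jun protein is known to act on its own promoter. The 300 bases run from 250 bases before to 50 after the annotated start (RefSeq, GRCm38.p6, chr4:95052173-95052472, minus strand), 5′ to 3′, and the capitals mark the AP-1-like elements TTACCTCA and TGACATCA, 164 and 45 bases before the start.
Jun promoter: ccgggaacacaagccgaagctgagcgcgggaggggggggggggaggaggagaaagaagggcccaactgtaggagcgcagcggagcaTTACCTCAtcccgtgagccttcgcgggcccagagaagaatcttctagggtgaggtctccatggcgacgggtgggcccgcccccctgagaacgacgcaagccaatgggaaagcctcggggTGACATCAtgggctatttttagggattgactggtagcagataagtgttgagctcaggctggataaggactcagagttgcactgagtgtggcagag
TTACCTCA was found on either strand in the promoters of 1.03% of 27025 genes, and TGACATCA in those of 4.18%. Among the 9626 tested genes with a promoter entry the shares were 0.80% and 2.25%. *Jun* was read at 332, 266 and 309 CPM at ZT9 and at 151, 164 and 169 CPM at ZT21. The groups did not overlap, the means differed 1.87-fold, and the log2 difference was 0.90 ± 0.16 (SE, limma adjusted p = 0.476). *Egr1*, a zinc-finger factor induced by growth factor signals, was at 606, 543 and 565 CPM and at 260, 332 and 352 CPM, a log2 difference of 0.87 ± 0.19 (limma adjusted p = 0.722). *Fos*, the partner of *Jun* in AP-1, was at 1964, 1809 and 1862 CPM against 1405, 1160 and 1456 CPM. *Ier2* was at 479, 404 and 454 CPM against 320, 284 and 341 CPM. In each of these genes the lowest ZT9 mouse was above the highest ZT21 mouse.

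In the whole list of 24 immediate early genes, which are also known to be induced when tissue is dissociated, 7 were higher at ZT9 at an unadjusted p under 0.05 (*Jun*, *Egr1*, *Fos*, *Ier2*, *Klf6*, *Egr2* and *Atf3*) and 0 were lower. The median log2 difference of the list was 0.40, 23 of the 24 differences were positive, and in 10 genes all ZT9 libraries lay above all ZT21 libraries. Over all genes tested 3.61% were higher, 1.71% were lower, and 6.65% had all ZT9 libraries above all ZT21 libraries. Summed over the list, the ZT9 libraries held 16124 to 18702 CPM and the ZT21 libraries 13196 to 14419 CPM. *Nr4a3* was the exception in sign, with 39.2, 32.9 and 21.9 CPM at ZT9 and 42.9, 29.6 and 42.6 CPM at ZT21. *Junb* was at 2212 to 2692 CPM at ZT9 and at 2282 to 2324 CPM at ZT21, with overlap. At the other sham timepoints mean *Jun* was 300 CPM at ZT3 and 244 CPM at ZT15, and mean *Fos* 2004 and 1818 CPM, so that in both genes ZT21 had the lowest mean of the 4 timepoints. Without replicate 1 or 3 of ZT21 or replicate 1 of ZT9 the count of 7 fell to 4, and with median-of-ratios scaling to 5. Heat shock genes also respond to handling of cells. Of 26 genes for heat and cold shock 2 were higher and 0 lower, with a median of 0.04, although *Hspa1a* was 1 of these 2 (42.3, 25.3 and 29.5 CPM against 15.5, 26.6 and 15.4 CPM, with part of its reads counted as fractions in every sham library). Whether handling of the cells had a part in the difference was not tested.

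*Tnf*, a cytokine that DCs release on activation, was at 132, 105 and 105 CPM at ZT9 and at 57.3, 61.5 and 57.9 CPM at ZT21. The ZT21 mice lay within a few CPM of each other, and the log2 difference was 0.94 ± 0.22 (limma adjusted p = 0.766). It was the only 1 of 16 cytokine genes tested with an unadjusted p under 0.05, against 5.32% of all genes tested. *Il12b*, which encodes a subunit of the T cell polarising cytokine IL-12, was at 193, 298 and 255 CPM against 156, 276 and 200 CPM. *Il1b* was at 329, 295 and 244 CPM against 286, 150 and 224 CPM.

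The promoters of *Cxcl1* and *Cxcl2*, genes for ligands of the receptor CXCR2, are shown together because the log2 differences of these neighbouring genes were nearly equal and because NF-kB is known to drive both. Each stretch covers the same window as above (RefSeq, GRCm38.p6, plus strand, chr5:90890995-90891294 for *Cxcl1* and chr5:90903649-90903948 for *Cxcl2*), and the capitals mark matches on either strand to a form of the NF-kB element, which is GGG, 2 bases of any kind and TTTCC.
Cxcl1 promoter: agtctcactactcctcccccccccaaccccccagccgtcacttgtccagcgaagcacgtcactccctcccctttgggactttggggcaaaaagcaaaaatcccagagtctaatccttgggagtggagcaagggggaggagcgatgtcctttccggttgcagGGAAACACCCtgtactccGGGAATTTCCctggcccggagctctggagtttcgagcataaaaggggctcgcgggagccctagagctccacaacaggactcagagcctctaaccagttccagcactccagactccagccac
Cxcl2 promoter: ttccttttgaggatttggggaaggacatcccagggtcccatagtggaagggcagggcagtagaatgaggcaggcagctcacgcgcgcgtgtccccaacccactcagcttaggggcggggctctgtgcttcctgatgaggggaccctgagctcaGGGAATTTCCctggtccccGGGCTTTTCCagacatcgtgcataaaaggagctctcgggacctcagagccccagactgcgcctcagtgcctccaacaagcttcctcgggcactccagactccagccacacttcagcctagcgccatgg
Each promoter held 2 matches, starting 89 and 71 bases before the start in *Cxcl1* and 97 and 78 bases before it in *Cxcl2*. At least 1 match in this window was found in 1.89% of all 27025 genes and in 2.18% of the tested genes with an entry. *Cxcl1* was at 440, 323 and 161 CPM at ZT9 and at 161, 109 and 148 CPM at ZT21, and *Cxcl2* at 54.4, 41.1 and 22.4 CPM and at 21.5, 14.6 and 18.6 CPM. In both genes replicate 3 of ZT9 lay barely above the highest ZT21 mouse, and replicate 1 was the highest. The log2 differences were 1.05 ± 0.34 and 1.02 ± 0.29 (limma adjusted p = 0.824 and adjusted p = 0.784). All values of *Cxcl2* in sham libraries were fractions of a read, so its level is less certain than that of *Cxcl1*. *Cxcl3*, a paralogue of both, was at 3.95, 2.16 and 4.88 CPM against 2.09, 2.62 and 1.74 CPM, with overlap. Of 26 chemokine genes, 3 were higher and 1 was lower at ZT9, against 3.61% and 1.71% of all genes tested, with a median of 0.20. The third that was higher was *Ccl9*, at 123, 112 and 73.2 CPM against 69.7, 48.8 and 85.7 CPM, where the groups overlapped. *Ccl12*, a ligand of the monocyte receptor CCR2, was lower, at 5.86, 4.93 and 5.38 CPM against 21.5, 7.93 and 11.6 CPM. *Ccl22*, a T cell attracting chemokine of mature DCs, was at 6837, 5318 and 4596 CPM against 5200, 3810 and 3965 CPM (log2 difference 0.36 ± 0.19, limma adjusted p = 0.955). With 1 library left out, the log2 difference of *Ccl22* ran from 0.21 to 0.50.

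Genes of NF-kB and its feedback inhibitors as a list had a median of -0.05 over 20 genes, with 2 higher (*Nfkbiz* and *Ikbke*) and 0 lower. Over all genes tested 3.61% were higher and 1.71% lower. *Ikbke*, at an unadjusted limma p of 0.0496, stayed under 0.05 in 4 of 11 other settings and in 2 of 12 omissions of a library. Its log2 difference ran from 0.37 to 1.26 over the omissions. *Nfkbiz*, which encodes the inducible nuclear protein I-kappa-B zeta, was the clearest of the list, at 203, 139 and 197 CPM against 89.5, 97.0 and 104 CPM (log2 difference 0.87 ± 0.22). *Nfkbia* and *Tnfaip3*, both transcribed in answer to NF-kB, also had all ZT9 libraries above all ZT21 libraries, but by only 0.25 and 0.41 on the log2 scale. Of the subunits themselves, *Rela* was at 275 to 335 CPM at ZT9 and 320 to 347 CPM at ZT21, and *Relb* at 1026 to 1207 CPM and 1074 to 1487 CPM. *Ptgs2*, the inducible cyclooxygenase that starts prostaglandin synthesis, was at 91.4, 83.6 and 64.2 CPM against 21.4, 53.5 and 24.0 CPM, 2.42-fold higher in the mean (log2 difference 1.37 ± 0.36, limma adjusted p = 0.784).

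Of the co-stimulatory ligands, *Cd80* and *Tnfsf9* had the largest differences relative to their spread. *Cd80* (chr16:38457430-38495958, plus strand) encodes B7-1, a ligand of CD28 and CTLA-4. It was at 17.4, 20.8 and 14.8 CPM at ZT9 and at 8.02, 9.24 and 8.95 CPM at ZT21, a 2.02-fold difference of the means (log2 difference 0.97, 95% interval 0.49 to 1.44, limma adjusted p = 0.722). The sham mice of ZT3 and ZT15 lay between, with means of 12.1 and 9.28 CPM. *Tnfsf9*, the ligand of 4-1BB, a receptor on activated T cells, was at 114, 85.6 and 63.4 CPM against 43.4, 42.0 and 42.2 CPM, and its ZT21 mice were again nearly equal. It shares 14.9% of its exonic bases with Gm11110, and *Jun* shares 7.28% with Junos, so that part of such reads could belong to either gene. These 2 of 16 co-stimulation genes were higher and 0 were lower, against 3.61% and 1.71% of all genes tested, with a median of 0.05. *Cd86*, the second ligand of CD28, was at 231, 177 and 114 CPM against 147, 129 and 115 CPM, and its lowest mouse was a ZT9 mouse. *Cd40* lay at 651 to 843 CPM and 653 to 745 CPM. *Pdcd1lg2*, which encodes the inhibitory ligand PD-L2, pointed the other way, at 24.2, 22.2 and 25.3 CPM against 41.2, 40.5 and 31.3 CPM (log2 difference -0.64 ± 0.29, limma adjusted p = 0.927).

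**Figure D2:**
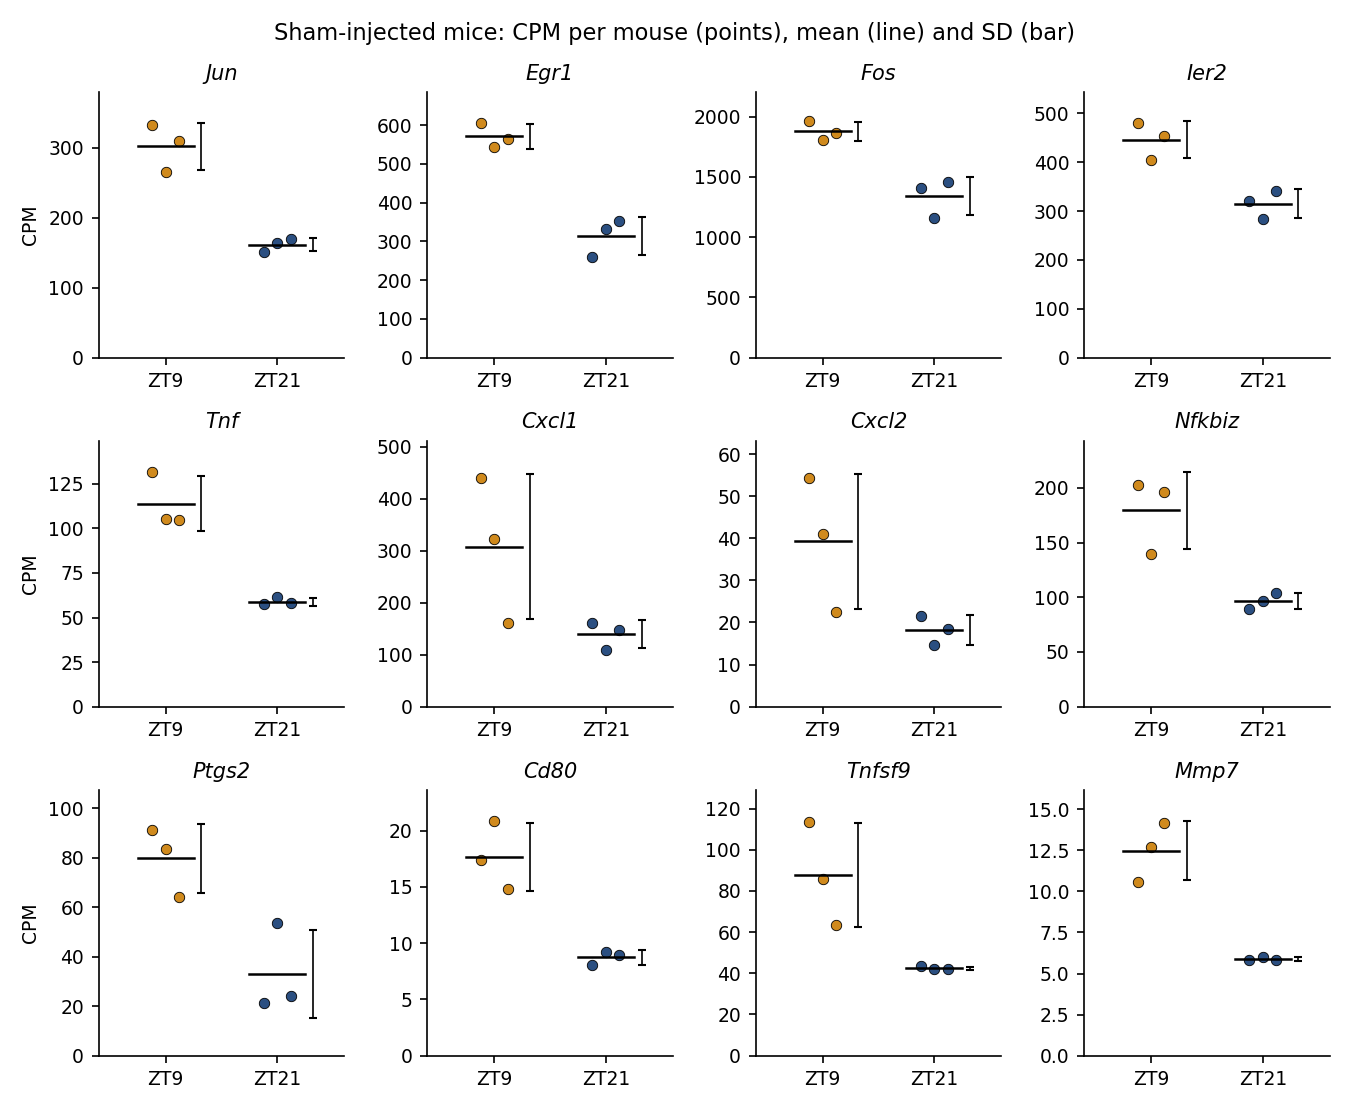
CPM (y axis, from 0, a scale of its own in each panel) of 12 genes in the 3 mice of ZT9 (orange) and the 3 of ZT21 (blue); lines are means and bars to the right are SDs. In each panel all ZT9 points lie above all ZT21 points, and in Tnf, Tnfsf9 and Mmp7 the ZT21 points nearly coincide.

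The enzymes of cholesterol synthesis convert acetyl-CoA to mevalonate, to isoprenoids and to sterols, and the factor SREBP2 is known to switch them on together when sterols are short, with NF-Y bound beside it at CCAAT boxes. The promoters of *Hmgcs1*, whose enzyme makes HMG-CoA, and of *Mvk*, the mevalonate kinase, are shown as early steps of the pathway whose ZT9 and ZT21 mice did not overlap. The window is as above (RefSeq, GRCm38.p6, plus strand, chr13:119690101-119690400 and chr5:114444019-114444318), and capitals mark CCAAT on either strand.
Hmgcs1 promoter: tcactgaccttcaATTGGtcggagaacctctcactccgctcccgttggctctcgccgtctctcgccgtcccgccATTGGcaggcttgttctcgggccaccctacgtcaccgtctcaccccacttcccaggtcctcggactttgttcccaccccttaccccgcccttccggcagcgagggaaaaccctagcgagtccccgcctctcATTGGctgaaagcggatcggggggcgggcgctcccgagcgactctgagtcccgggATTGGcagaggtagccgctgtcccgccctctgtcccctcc
Mvk promoter: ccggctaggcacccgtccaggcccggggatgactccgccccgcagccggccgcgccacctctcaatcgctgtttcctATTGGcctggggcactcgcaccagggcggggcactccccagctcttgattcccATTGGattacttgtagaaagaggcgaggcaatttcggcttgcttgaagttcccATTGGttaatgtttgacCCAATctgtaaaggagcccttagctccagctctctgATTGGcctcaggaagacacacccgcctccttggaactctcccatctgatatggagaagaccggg
CCAAT occurred 4 times in the first and 5 times in the second. Of the 18 list members that have an entry among these promoters, 16 (88.9%) held at least 1 CCAAT, against 41.1% of all 27025 genes and 42.7% of the tested genes with an entry. Among the clock genes described below the share was 12 of 16 (75%), so a high share was not particular to the sterol list.

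Of the 23 genes tested, 10 were higher at ZT9 at an unadjusted p under 0.05 and 0 were lower (*Lss*, *Fdps*, *Msmo1*, *Hmgcs1*, *Stard4*, *Sc5d*, *Insig1*, *Idi1*, *Mvk* and *Fdft1*). The list had a median log2 difference of 0.43, and 20 of 23 differences were positive. In the sham contrast 3.61% of all genes tested were higher and 1.71% lower. *Hmgcs1* was at 180, 144 and 151 CPM against 101, 133 and 100 CPM (log2 difference 0.51 ± 0.19), and *Mvk* at 23.9, 22.9 and 21.9 CPM against 14.5, 19.2 and 17.0 CPM. *Fdps*, which makes farnesyl pyrophosphate, was at 200, 184 and 169 CPM against 116, 157 and 111 CPM. *Lss*, which closes the sterol rings, was at 30.2, 27.6 and 34.7 CPM against 16.5, 20.6 and 21.7 CPM, and had the smallest p of the list (log2 difference 0.64 ± 0.22, limma adjusted p = 0.864). Replicate 2 of ZT21 was the highest of its group in each of the 10 genes except *Lss*. The summed level of the list was 2072 to 2565 CPM at ZT9 and 1504 to 2022 CPM at ZT21.

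How many of the sterol genes passed the unadjusted threshold depended strongly on single mice. Leaving out replicate 2 of ZT21 raised the count from 10 to 13. Without replicate 1 of ZT21 it was 0, without replicate 1 of ZT9 it was 1, without replicate 3 of ZT21 it was 2 and without replicate 2 of ZT9 it was 4. The same contrast in control mice with tumour cells shares no library with these. There 19 of the 23 genes were higher at ZT9 at an unadjusted p under 0.05 and 0 were lower, with a median of 0.55. Of all genes tested 6.44% were higher and 5.02% lower in that contrast. For *Hmgcs1* the means were 228 and 120 CPM in the tumour mice. Between the sham and tumour contrasts 2 of the 23 genes differed at an unadjusted p under 0.05, against 6.62% of all genes tested, namely *Mvd* and *Insig1*, both with the larger difference in tumour mice (0.68 against 0.12 and 1.26 against 0.66).

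**Figure D3:**
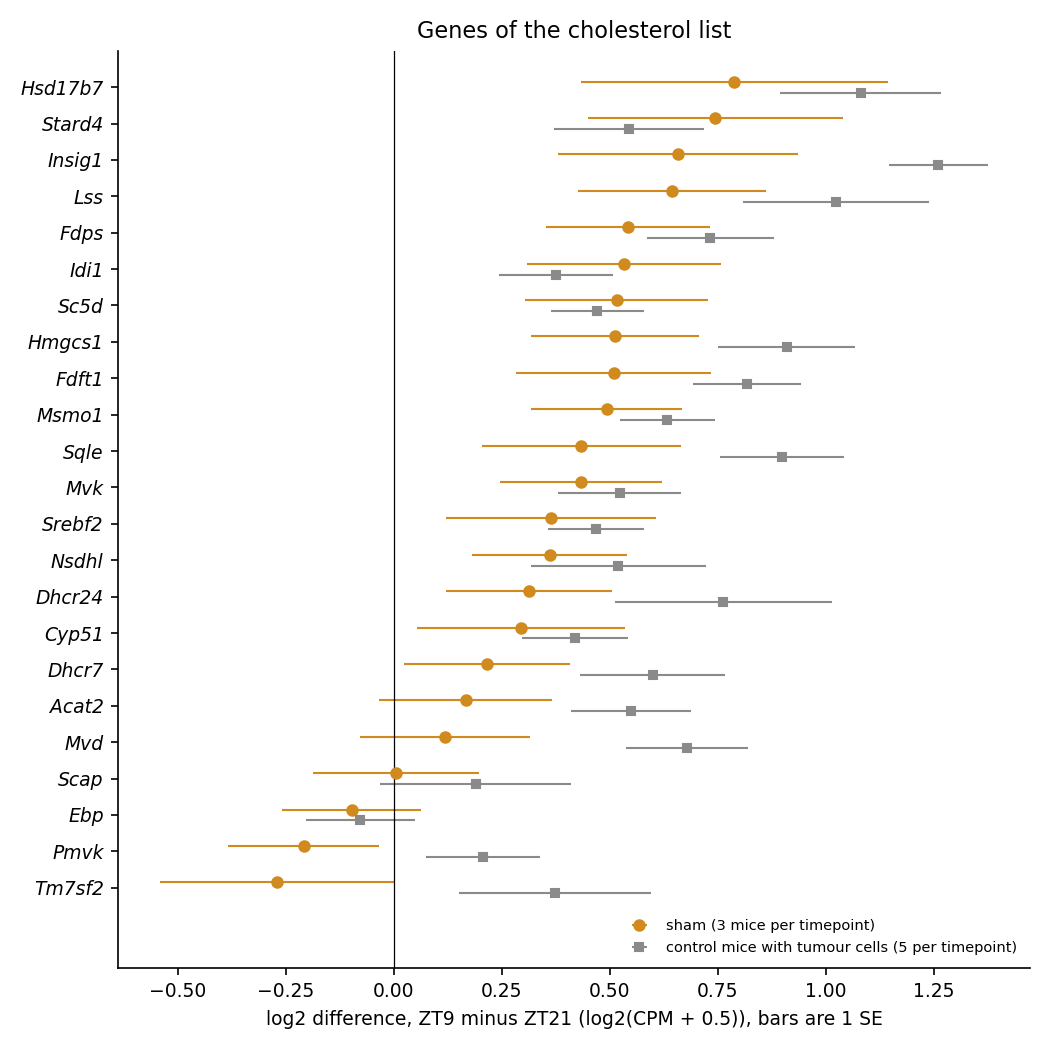
Log2 differences (ZT9 minus ZT21, x axis) of the 23 genes of the cholesterol list (y axis) in sham mice (orange circles, 3 mice per timepoint) and in control mice with tumour cells (grey squares, 5 per timepoint), with bars of 1 SE. Of the orange circles 20 lie right of 0, as do the grey squares of each gene except Ebp.

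Of 15 fatty acid genes 2 were higher (*Fads1* and *Acss2*), 1 was lower (*Scd1*) and the median was 0.04. The shares over all genes tested were 3.61% higher and 1.71% lower. *Fads1*, a desaturase of polyunsaturated fatty acids, was at 24.3, 30.0 and 23.9 CPM against 16.1, 22.0 and 10.7 CPM. *Scd1*, which desaturates stearate, was lower in each ZT9 mouse, at 5.64, 3.61 and 2.65 CPM against 8.97, 12.3 and 8.61 CPM. Its reads were counted as fractions in every sham library.

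Of 19 clock genes tested, 2 were higher at ZT9 at an unadjusted p under 0.05 and 0 were lower, with a median of 0.11. The shares over all genes tested were 3.61% higher and 1.71% lower. The count of 2 became 1 without replicate 1 or 3 of ZT21 or replicate 1 of ZT9, and 4 without replicate 2 of ZT21. *Nr1d1* (chr11:98767932-98775377, minus strand), which encodes the repressor REV-ERB alpha, had the largest difference of the list. It was at 12.4, 5.81 and 18.3 CPM at ZT9 and at 5.54, 1.21 and 3.46 CPM at ZT21, a 3.57-fold difference of the means (log2 difference 1.74, 95% interval 0.62 to 2.86, limma adjusted p = 0.784). The groups were separated by a margin of under 1 CPM, between replicate 2 of ZT9 and replicate 1 of ZT21. *Bhlhe40*, which encodes the clock-linked repressor DEC1, was far more abundant, at 402, 367 and 287 CPM against 267, 279 and 248 CPM (log2 difference 0.40 ± 0.17).

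Of the period and cryptochrome repressors, *Per1* was at 13.2, 13.8 and 14.7 CPM against 9.89, 10.8 and 11.5 CPM and *Cry1* at 15.6, 12.7 and 19.5 CPM against 11.3, 12 and 12.6 CPM. In both genes the groups did not overlap, and with the spread shared over the 4 sham timepoints the limma adjusted p was 1 for *Per1* and 0.959 for *Cry1*. *Cry2* was at 23.9, 16.6 and 25.0 CPM against 13.7, 19.8 and 14.5 CPM, with overlap. *Per2*, at 3.31 to 3.61 CPM in the ZT9 mice, ranged from 2.40 to 9.83 CPM in the ZT21 mice. Of the activators, *Arntl* (the gene of BMAL1) was at 14.2, 23.0 and 21.7 CPM against 22.0, 20.9 and 21.8 CPM and *Clock* was at 9.18, 18.6 and 22.9 CPM against 13.6, 15.2 and 23.1 CPM. *Dbp* and *Tef* encode PAR-bZIP factors, which the clock drives directly. *Dbp* was at 30.2, 38.4 and 41.5 CPM against 28.4, 34.5 and 28.4 CPM, and *Tef* at 55.0, 65.7 and 47.3 CPM against 38.9, 45.5 and 47.0 CPM. Among the 4 sham timepoints, ZT9 held the highest mean of *Nr1d1* (12.2 CPM) and of *Tef* (56.0 CPM), whereas *Dbp* (51.6 CPM) and *Cry1* (21.4 CPM) were highest at ZT15. In the other genes of the list the log2 differences were *Ciart* 1.04, *Nr1d2* 0.31, *Hlf* 0.11, *Csnk1d* 0.11, *Rora* 0.05, *Nfil3* -0.03, *Per3* -0.04, *Csnk1e* -0.21 and *Npas2* -0.32. Each had an unadjusted limma p above 0.05. With 1 library left out, *Nr1d2* ran from 0.14 to 0.52 and *Csnk1d* from 0.02 to 0.21. *Ciart*, at 1.29, 2.01 and 3.54 CPM against 0, 2.33 and 0.980 CPM, overlapped, and its log2 difference was 0.36 without replicate 1 of ZT21 and 1.61 without replicate 2. E-boxes (CACGTG) were found in the promoters of 4 of the 16 clock genes with an entry (*Per1*, *Cry1*, *Ciart* and *Tef*). The share was 11.5% of the tested genes with an entry and 8.09% of all 27025 genes. They were found in 5 of 18 genes of the sterol list and 5 of 20 of the immediate early list, so the share was not particular to the clock genes.

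**Figure D4:**
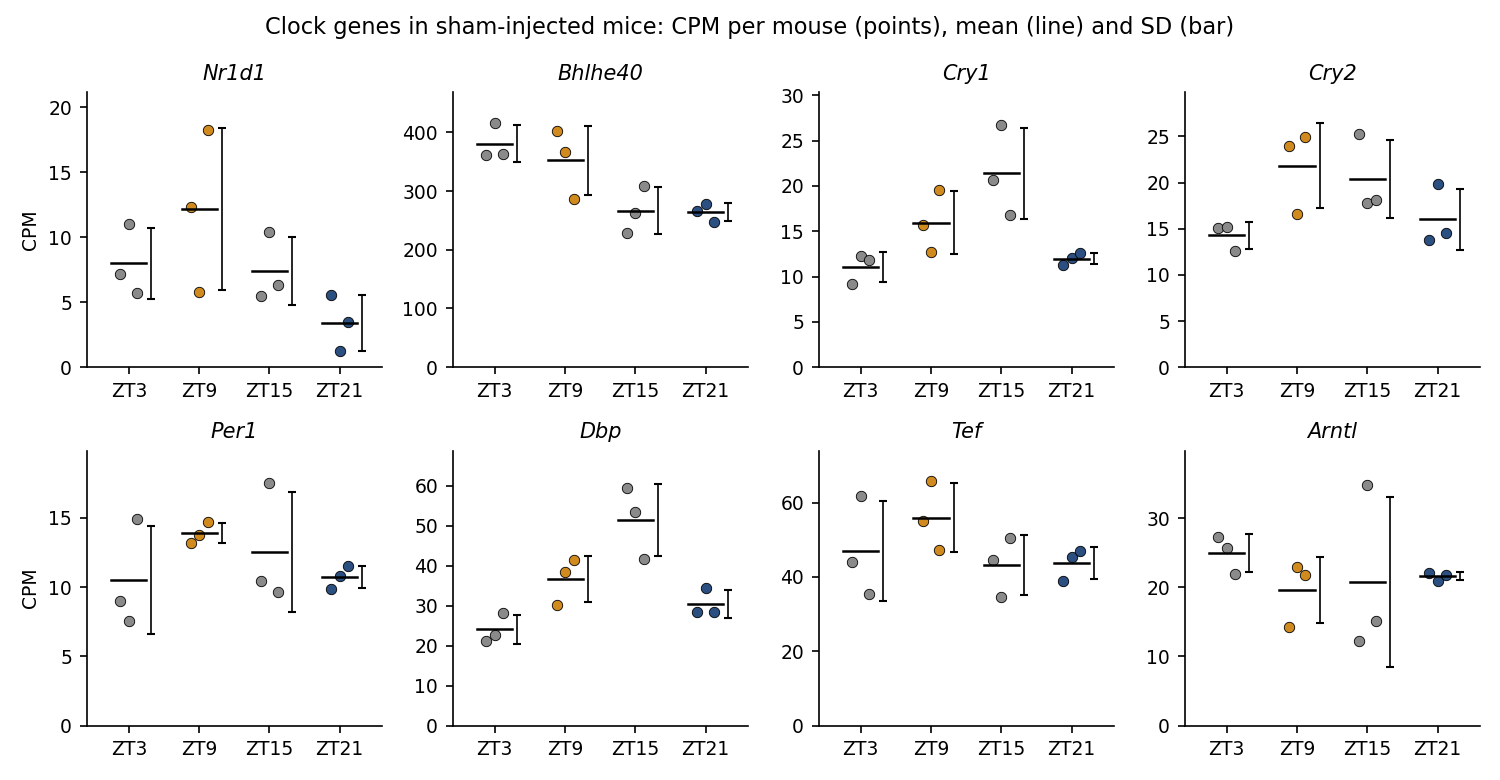
CPM (y axis, from 0, a scale of its own in each panel) of 8 clock genes in the 12 sham mice by timepoint (x axis); points are mice, lines are means and bars are SDs, with ZT9 in orange, ZT21 in blue and the other timepoints in grey. The ZT9 and ZT21 points do not overlap in Nr1d1, Bhlhe40, Cry1, Per1 and Tef.

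Of genes with a difference of at least 2-fold and a mean of at least 5 CPM, *Mmp7* had the smallest p. *Mmp7* (chr9:7692090-7699585, plus strand) encodes the matrix metalloproteinase matrilysin. It was at 10.6, 12.7 and 14.2 CPM at ZT9 and at 5.81, 6.02 and 5.85 CPM at ZT21, with a log2 difference of 1.01 ± 0.15 (limma adjusted p = 0.197). The ZT21 mice nearly coincided. Next came the zinc-finger gene *Zfp948* (12.7, 14.6 and 9.36 CPM against 4.76, 6.45 and 6.08 CPM), then *Mthfd1l*, whose mitochondrial enzyme yields formate from folate (9.43, 10.6 and 12.2 CPM against 3.08, 5.95 and 4.18 CPM), and *Uspl1*, a SUMO protease (28.6, 33.1 and 36.9 CPM against 12.9, 19.6 and 13.1 CPM). *Anks1* (7.22 to 8.25 CPM against 1.95 to 4.69 CPM), *Trib2* (7.15 to 17.9 CPM against 3.88 to 6.86 CPM) and *Zfp850* (8.54 to 13.2 CPM against 3.89 to 4.14 CPM) completed the genes higher at ZT9, with *Ptgs2*, *Cxcl2* and *Rsc1a1*. *Rsc1a1* shares all of its exonic bases with *Ddi2*, and *Zfp850* was counted in fractions of a read in 91.7% of the sham libraries, so the levels of both are uncertain.

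Of the genes lower at ZT9, the 10 with the smallest p by the same rule were of varied function. *Alox15*, a lipoxygenase of alternatively activated macrophages, was at 5.29, 3.01 and 3.66 CPM against 10.02, 7.55 and 10.3 CPM. *Cd209e*, a C-type lectin, was at 25.5, 5.93 and 4.06 CPM against 34.9, 12.1 and 26.9 CPM. *Jchain*, which joins immunoglobulins in plasma cells, was at 0.321, 1.51 and 0.0249 CPM against 0.297, 14.5 and 7.87 CPM. In *Jchain* a ZT21 mouse was as low as those of ZT9, and the other 2 were higher. The mean of *Jchain* over the libraries listed here is below 5 CPM, so the rule did not use that mean. *Ccl24* (3.59 to 6.02 CPM against 5.39 to 22.8 CPM) and *Slc1a4* (0.236 to 5.83 CPM against 4.24 to 12.1 CPM) overlapped between the timepoints, and *Cd209e*, *Slc1a4*, *Ccl24* and *Ifit3* had unadjusted limma p-values above 0.05. *Ncaph*, a subunit of condensin I, was at 3.64, 0.885 and 3.24 CPM against 8.89, 7.10 and 8.04 CPM, and *Atat1*, a tubulin acetyltransferase, at 3.89, 4.90 and 4.86 CPM against 14.7, 6.60 and 9.34 CPM. Among genes under 5 CPM, those with the smallest p were *Myo15* (1.64, 2.66 and 2.62 CPM against 0.324, 0 and 0 CPM), *Zfp300* and *Fam83d*, higher, and *Tex15* (0, 0 and 0.423 CPM against 2.49, 3.02 and 1.89 CPM), *Trim17* and *Gm3893*, lower.

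Of 32 interferon-stimulated genes 26 had a negative difference and the median was -0.12, but only *Bst2* was lower at an unadjusted p under 0.05, against 1.71% of all genes tested. *Bst2* encodes tetherin, which holds budding virus at the cell surface, and was at 108, 105 and 106 CPM against 141, 129 and 129 CPM. In the IFIT genes, which are strongly induced by interferon, replicate 2 of ZT21 stood above the rest. *Ifit3* was at 6.05, 51.8 and 13.8 CPM in the ZT21 mice and at 9.42, 3.29 and 3.52 CPM in the ZT9 mice, and *Ifit1* at 15.9, 79.2 and 21.1 CPM and at 19.97, 18.4 and 14.6 CPM. Both genes were counted in fractions of a read in most sham libraries. The list summed to 3622 CPM in that mouse and to 2554 to 2872 CPM in the other 5.

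The cold-inducible RNA-binding protein genes *Rbm3* and *Cirbp* were higher in the mean at ZT9. *Rbm3* was at 467, 483 and 400 CPM against 338, 307 and 354 CPM (log2 difference 0.43 ± 0.17), and *Cirbp* at 189, 229 and 239 CPM against 143, 138 and 201 CPM (log2 difference 0.46 ± 0.22, limma adjusted p = 0.945). Control mice with tumour cells gave log2 differences of 0.50 ± 0.13 and 0.82 ± 0.13 for these genes. The whole list of 26 heat and cold shock genes had 3 higher and 13 lower in the tumour contrast, with a median of -0.22. Of all genes tested 6.44% were higher and 5.02% lower there. In 7 of the 26 genes the unadjusted interaction p was under 0.05, against 6.62% of all genes tested. *Rbm3* was counted in fractions of a read in every sham library.

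The composition of the sorted cells could differ between the timepoints, and in bulk RNA fewer cells of a type and less RNA per cell cannot be told apart. Markers of type 1 conventional DCs, the subset that cross-presents antigen to CD8 T cells, had a median of 0.30 over 12 genes, with 3 higher (*Snx22*, *Naaa* and *Clec9a*) and 0 lower. Over all genes tested 3.61% were higher and 1.71% lower. The markers did not all point 1 way, with 8 differences positive and 4 negative, the lowest at -0.50. All ZT9 libraries lay above all ZT21 libraries in 1 marker and below them in 1. *Snx22* shares 28.5% of its exonic bases with Ppib, which leaves its level uncertain. Without replicate 2 of ZT9 the unadjusted limma p was 0.12 for *Naaa* and 0.15 for *Clec9a*. *Clec9a* was at 2.54, 8.32 and 5.63 CPM against 1.68, 1.38 and 3.79 CPM. The chemokine receptor gene *Xcr1* was at 21.3, 57.1 and 32.8 CPM against 16.2, 25.1 and 25.3 CPM, whereas *Irf8* was at 719 to 945 CPM against 691 to 1175 CPM. Summed, the list gave 1072 to 1383 CPM at ZT9 and 1061 to 1538 CPM at ZT21. Markers of type 2 DCs had a median of -0.01 over 11 genes, with 0 called, and sums of 470 to 514 CPM and 425 to 525 CPM. The 18 genes of migratory mature DCs had a median of -0.03 and the 13 genes of DC identity had a median of 0.12, both with 0 called. For class II presentation the median was 0.16 over 14 genes, with 0 called, and *Ciita*, the master regulator of class II genes, was at 75.6, 51.2 and 32.7 CPM against 30.3, 45.6 and 40.3 CPM.

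T cell genes were read in each library, although conventional T cells lie outside the sorted gate. Of 21 T cell markers tested 2 were higher (*Cd28* and *Cd247*) and 0 were lower, the median was 0.27 and 19 differences were positive. Beside this and the other marker lists, 3.61% of all genes tested were higher and 1.71% lower. *Cd3e* was at 73.7, 75.3 and 124 CPM against 87.1, 77.1 and 98.6 CPM, and *Cd28* at 24.6, 32.8 and 35.9 CPM against 17.4, 22.0 and 19.5 CPM. The sums were 945, 1080 and 1321 CPM at ZT9 and 929, 867 and 1031 CPM at ZT21, and so overlapped. *Cd247* shares 60.3% of its exonic bases with Pou2f1 and is uncertain. None of the 21 markers was at 0 in all 6 libraries. Among the remaining marker lists, B cells had 1 of 13 genes higher (sums of 136 to 202 CPM against 155 to 189 CPM), NK cells 0 of 14 (190 to 448 CPM against 207 to 294 CPM), monocytes and macrophages 0 of 18 (3199 to 3566 CPM against 2637 to 4025 CPM), granulocytes 0 of 7 (15.3 to 18.7 CPM against 18.8 to 22.1 CPM), plasmacytoid DCs 1 higher and 1 lower of 12, stroma and endothelium 1 higher and 2 lower of 12, and erythroid cells and platelets 2 higher of 3 (4.87 to 15.7 CPM against 1.05 to 3.92 CPM). Of 3 keratinocyte and 3 melanoma genes 0 were called, and defining genes such as Ly6g, Camp, Krt5 and Krt14 did not reach the filter. Their part in the differences above was not tested.

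The 76 ribosomal protein genes had a median of -0.09 and the 45 genes of oxidative phosphorylation likewise -0.09, both with 0 called in either direction. Of these differences 64 of 76 and 33 of 45 were negative. For the counts that follow, the shares over all genes tested were 3.61% higher and 1.71% lower. Cell cycle genes (36) had a median of 0.01 and 1 lower (*Ccnb2*), the unfolded protein response (23) -0.03 and 0 called, glucocorticoid targets (18) 0.10 and 0 called, glycolysis (24) 0.03 and 1 higher (*Aldoc*), and the kinases, complex subunits and regulators of the PI3K, AKT and mTOR pathway (20) 0.03 and 0 called. Lysosomal genes (33) had a median of -0.04, with 1 higher (*Ppt1*) and 0 lower and with 21 differences negative. Their summed level was lower at ZT9 without overlap, at 14399 to 15474 CPM against 15657 to 16330 CPM. Chemokine receptors had 2 of 18 higher, *Ccr9* (24.7, 19.2 and 18.0 CPM against 12.9, 12.7 and 12.1 CPM) and *Cxcr3*, with a median of 0.20. Adhesion genes had 1 of 29 higher (*Pecam1*), and Toll-like receptors 1 higher (*Tlr8*) and 1 lower (*Tlr12*) of 16. Class I presentation had a median of -0.08 over 15 genes and 0 called, with 14 differences negative and sums of 45643 to 47601 CPM against 47633 to 50911 CPM. Langerhans cell markers had 1 of 7 higher (*Cldn1*, 58.7, 67.5 and 54.7 CPM against 39.2, 42.9 and 45.2 CPM).

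**Figure D5:**
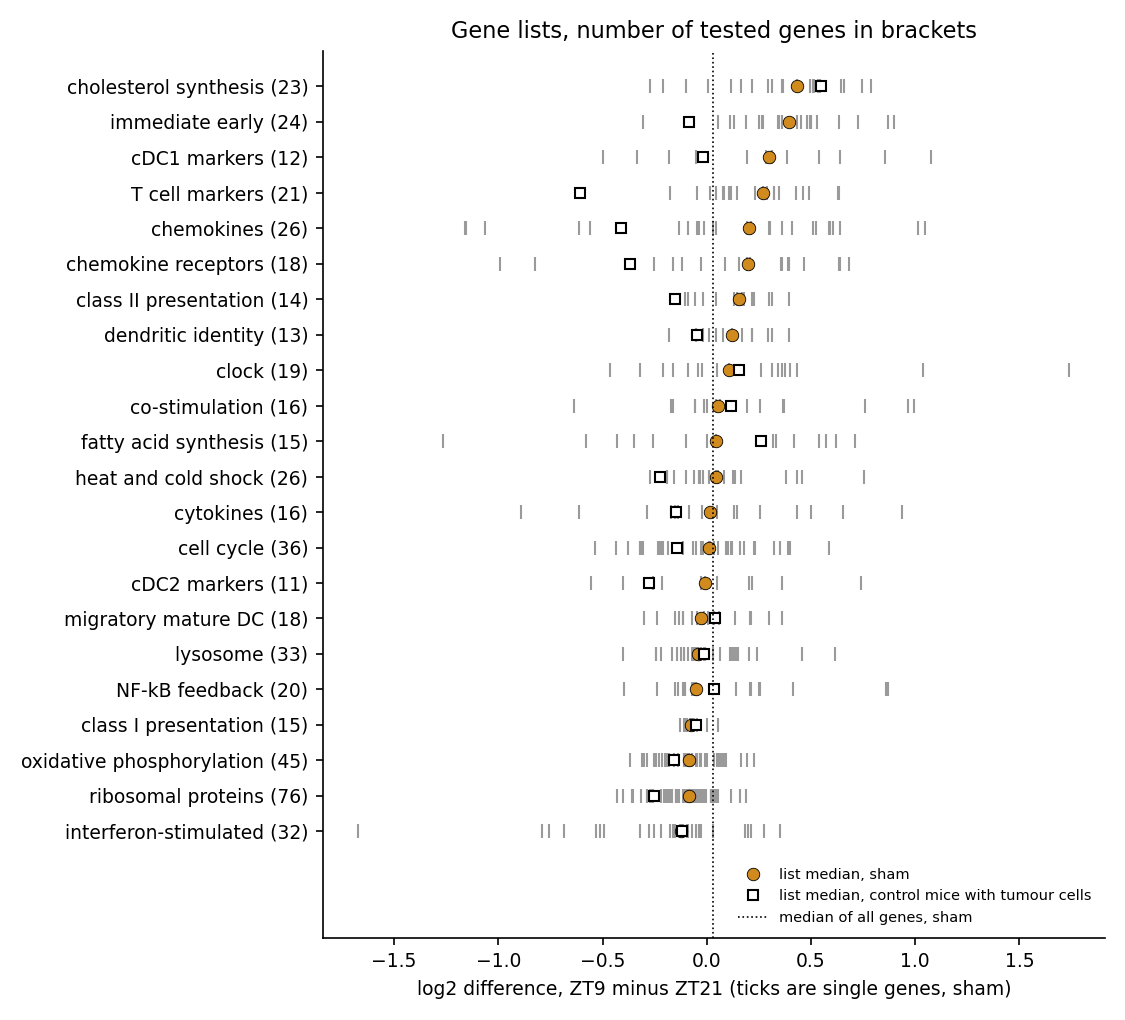
Log2 differences (ZT9 minus ZT21, x axis) of the genes of 22 lists (y axis) in sham mice; ticks are genes, orange circles list medians in sham mice, open squares list medians in control mice with tumour cells, and the dotted line the median of all genes in sham mice. Cholesterol synthesis (0.43) and immediate early genes (0.40) have the highest sham medians of these lists, and the square of the latter lies below 0 (-0.08). The lists drawn are a part of all 38, and the erythroid and platelet markers (3 genes, 0.86), not drawn, had a higher median.

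The contrast was then set beside that of the control mice with tumour cells, which share no library with the sham mice. Over all 11963 genes the log2 differences of both contrasts had a Pearson r of 0.07 and a Spearman rho of 0.08, which describes genes and not replicates. No gene differed between the contrasts at an adjusted p under 0.05 (limma interaction, 0 of 11963, smallest adjusted p = 0.218), and 792 genes (6.62%) did at an unadjusted p under 0.05. Of the 637 genes with an unadjusted p under 0.05 in the sham mice, 68 (10.7%) passed with the same sign in the tumour mice and 19 (2.98%) with the opposite sign. These are 4.96% and 1.39% of the 1371 genes that passed in the tumour mice, which are 11.5% of all genes tested. For *Jun* the tumour mice had means of 152 CPM at ZT9 and 157 CPM at ZT21 (interaction 0.94 ± 0.28, limma adjusted p = 0.488), and for *Tnf* 23.0 and 30.3 CPM (interaction 1.31 ± 0.46, limma adjusted p = 0.595). Of the 24 immediate early genes 5 had an unadjusted interaction p under 0.05. The levels themselves also differed between the groups of mice, since *Fos* was at 1160 to 1964 CPM in the 6 sham mice and at 319 to 667 CPM in the 10 tumour mice. For *Cd80* the tumour mice had means of 14.0 and 11.5 CPM, and the sham difference was larger by 0.72 ± 0.27 (limma adjusted p = 0.624). Among T cell markers 13 of 21 had an unadjusted interaction p under 0.05, with a median of 0.27 in the sham mice and of -0.61 in the tumour mice. *Cd96*, a receptor of T and NK cells, was at 43.8, 41.1 and 71.3 CPM against 34.8, 25.4 and 36.7 CPM in the sham mice, and had means of 13.5 and 22.1 CPM in the tumour mice (interaction 1.36 ± 0.27, limma adjusted p = 0.218). It was among the 3 genes with the smallest interaction p in that direction, with *Kti12* and *Ubd*, and those in the other direction were *Tex15*, *Gtpbp8* and *Armcx1*. The tumour libraries held 20088012 to 28962671 reads on genes and the 12 sham libraries 28003328 to 49590055. Treatment and depth thus move together between the groups of mice, and their shares in these differences cannot be told apart. Between the timepoints depth overlapped in the tumour mice too, at 21126495 to 25401545 reads at ZT9 and 20088012 to 24864723 at ZT21.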

How the data were processed

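The genes described and the lists were chosen with earlier results of these data known. Per the study's methods, RNA of sorted cells was amplified with SMART-Seq v4, Nextera XT libraries were sequenced in single reads of 50 bases, and reads were aligned to mm10 with STAR and counted with HTSeq 0.9.1. The authors deposited CPM, the reads of a gene per 1000000 reads on genes, scaled by library size, for 14699 genes in 44 columns. In a given sham library 87.9 to 89.3% of values came out as whole reads (tolerance 0.01 reads), so reads were not recovered and no count test was run. Reads per library were read from the step between low values. Genes with fractions of a read, or sharing exons, are named as uncertain in the text.

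The 11963 genes that reached 1 CPM in 5 or more libraries (2736 did not) were fitted as log2(CPM + 0.5) with limma 3.58.1 (R 4.3.3), as 4 group means over the 12 sham libraries, and p was adjusted over these genes by the Benjamini-Hochberg method. The added pseudocount makes differences of low genes too small. The comparison with tumour mice used 32 libraries. A run of the fit on simulated data is not reported here, and no value above rests on it. Depth was compared with exact permutation tests (Python 3.11.15, numpy 2.4.6, pandas 2.3.3, scipy 1.17.1). Some genes of these lists are not reported here. Genes were picked by rule, and not all of those picked are named in the text. The rules took the tested genes of the clock list. They took the 10 genes in each direction with the smallest p at a difference of at least 2-fold and a mean of at least 5 CPM. Also taken were the 3 in each direction under 5 CPM and up to 4 genes of each of 38 lists. The 3 in each direction with the smallest interaction p, *Cd80* and markers of the sorted cells completed them. The other genes named were chosen after their values were seen. Promoters came from RefSeq (GRCm38.p6, 250 bases before to 50 after a start). Pseudocounts, filters, scaling, fits and omitted libraries were varied.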

Additional observations from a re-analysis of the deposited data

How the results depend on the processing

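The filter moved the count of genes at an unadjusted p under 0.05 but hardly their share: 417 of 7975 genes with a mean of at least 10 CPM passed (5.23%, of which 76.0% were higher) and 807 of all 14699 genes above 0 (5.49%), against 637 of 11963 (5.32%, of which 67.8% were higher). Median-of-ratios scaling gave 363 higher and 254 lower (58.8% higher) and moved the median of all genes to -0.00199. Array weights gave the largest share, 6.75% of 11963 genes, with 533 higher and 274 lower. Leaving out 1 library gave 510 to 693 genes, and 57.4% were higher without replicate 3 of ZT9. The difference between sham and tumour contrasts had 0 to 1 genes at an adjusted p under 0.05 when 1 library was left out; the 1 gene was *Fut7*, at -2.95 (limma adjusted p = 0.0377) without replicate 3 of ZT9. The sterol list had 7 to 13 genes higher over the other settings, and 0 to 13 with 1 library left out; the immediate early list had 5 to 11 and 4 to 8, and the clock list 1 to 3 and 1 to 4. The cause was not tested.

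The 113 genes picked by the rules above were followed through these settings, and other genes named in the text were not. Of these 113 genes, 67 had an unadjusted p under 0.05. None of these 67 changed sign in any setting, and 33 stayed under 0.05 in each omission of a library. Many were picked for a small p in this same contrast, and the fits share libraries. Stable signs follow largely from that choice and are no separate support. Among the rest of the 113, signs turned for 13. Array weights gave 0.068 for *Per3*, -0.0216 for *Rora* and -0.00941 for *H2-Aa*, and median-of-ratios scaling -0.02001 for *Flt3*. With 1 library left out, log2 differences ran from -0.29 to 0.0494 for *Arntl*, -0.35 to 0.28 for *Clock*, -0.72 to 0.31 for *Npas2*, -0.45 to 0.24 for *Per3*, -0.22 to 0.23 for *Rora*, -0.46 to 0.46 for *Hlf*, -0.15 to 0.0775 for *Nfil3*, -0.44 to 0.0320 for *Csnk1e*, -1.24 to 0.00304 for *Fcgr1*, -0.10 to 0.23 for *Itgax*, -0.0516 to 0.13 for *H2-Aa*, -0.15 to 0.10 for *Cd74* and -0.0534 to 0.0721 for *Flt3*. Same-numbered mice did not deviate together (correlations of -0.0161, -0.0139 and 0.0495), and differently numbered mice gave -0.0460 to 0.0570. No pairing by number was seen, but with 3 mice per timepoint a weak one could be missed. A replicate block gave 608 genes (427 higher, 181 lower), with 7 sterol genes.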
